A study of Homo sapiens with 6 samples.

Results

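Contacts between loci on one chromosome that lie at least 20 Mb apart were described in in situ Hi-C maps of 4 human cancer cell lines. In situ Hi-C cuts chromatin inside intact nuclei, ligates DNA ends that lie close together in space and counts the joined fragments as read pairs. The maps gave a contact frequency, after iterative correction, for pairs of 40-kb bins of hg19. A bin pair was taken when both bins lay on the same chromosome (1 to 22), at least 20 Mb apart, and were usable in all 4 lines, which left 83983665 of the 110327493 usable bin pairs within chromosomes. The choice used distance and the coverage of the bins, not the contact frequency of single bin pairs. That coverage counted read pairs between different bins of the chromosome at all distances, those at 20 Mb or more included. Beside them, 23432284 bin pairs lay 2 to 20 Mb apart and 2365484 lay 0.4 to 2 Mb apart.

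SW480 and SNU-C1 are colon cancer lines, HCC1954 is a breast cancer line and OE33 is an esophageal adenocarcinoma line. Each is 1 established line, and the labels give no treatment. There was 1 map for each line other than SW480, which came with replicates 1 and 2 and with another map that carries no replicate number. That map was the pool of the replicates, with 11224404 of its 11236839 bin pairs at 20 Mb or more that held a contact equal to their sum, so it stood for the line and was not counted as a separate sample. Per the study's methods Hi-C was run in duplicate, and whether the single maps of the other lines pool duplicates is not stated. The spread between the SW480 replicates was the only error available, the study calls its Hi-C replicates biological while the labels do not say whether they came from separate cultures, and the other lines are assumed to vary alike. No test across samples was run, and no p-value is given.

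In a nucleus each chromosome occupies a territory of its own. Contact frequency falls with the distance along the DNA, and how fast it falls reports on how the chromosome is folded at that scale. At short range, domains and loops formed by cohesin dominate. At long range, active chromatin tends to meet active chromatin and silent chromatin tends to meet silent chromatin, and the arms, the centromere and the telomeres set large-scale geometry. In cancer cells a rearrangement also brings loci that are far apart on the reference next to each other, and such a join appears in a Hi-C map as contact at a long reference distance.

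Between bins on the same autosome the maps held 128383285 read pairs for SW480 (63521353 and 64866967 in the replicates), 111648353 for SNU-C1 and 89447817 for HCC1954, against 86856186 for OE33. At 20 Mb or more there were 12566777, 8306866, 7896340 and 11161523 read pairs in the order SW480, SNU-C1, HCC1954 and OE33, which is the order of every list of 4 values below. These covered 12.5%, 8.62%, 8.28% and 11.5% of the usable bin pairs, so most single bin pairs held no contact and values were taken over many bin pairs, zeros included. The counting intervals given below cover counting error only, since read pairs are not independent molecules. The maps also differed in kind. SW480 held 0.210% of its read pairs between chromosomes, and it also held pairs within a bin, which count in that percentage. The other lines held no pairs within a bin and had 14.43%, 18.98% and 35.95% between chromosomes. The study's methods name iterative correction and do not say whether it ran within each chromosome or over the whole genome. A difference between SW480 and another line therefore cannot be told apart from the way its map was made.

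OE33 had the largest share of its contacts beyond 20 Mb. Of the contact frequency at 0.4 Mb or more, the class at 20 Mb or more took 18.7% in SW480 and 15.7% in SNU-C1, and 16.6% in HCC1954 and 23.8% in OE33. The SW480 replicates gave 18.7014% and 18.7564%, so every difference between lines exceeded the difference between replicates. As a share of uncorrected read pairs the values were 18.7341%, 15.6814%, 17.1295% and 24.3342%, with exact binomial 95% intervals no wider than 24.3218% to 24.3467%. The classes gave way in part at the near end. The share at 0.4 to 2 Mb was 43.9%, 48.4%, 47.1% and 41.0%, and the share at 2 to 20 Mb differed less, at 37.4%, 35.9%, 36.2% and 35.2%.

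OE33 was highest on 20 of the 22 chromosomes. On chromosome 2, where the share was largest in all 4 lines but HCC1954, it reached 24.70%, 20.05%, 19.63% and 31.15%. Shares were smaller on shorter chromosomes, which hold fewer bin pairs this far apart, and on chromosome 22 they were 2.60%, 2.19%, 1.58% and 5.03%. The exceptions were chromosomes 15 and 21. On chromosome 15 SNU-C1 was highest, with 12.7%, 17.9%, 14.2% and 17.5%. On chromosome 21 HCC1954 was highest, with 1.57%, 1.28%, 5.24% and 2.16%. The study names chromosome 15 of SNU-C1 for chromothripsis, the shattering and rejoining of a chromosome in one event, and chromosome 21 of HCC1954 for a complex rearrangement that resembles it. With the line-specific block pairs described below left out of all lines, SNU-C1 on chromosome 15 fell to 15.7%, below the 17.2% of OE33, and HCC1954 on chromosome 21 fell to 3.58%, still above the 2.05% of OE33. The block pairs left out on these chromosomes were picked for being high in that line, so the fall itself was fixed by the choice.

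**Figure D1:**
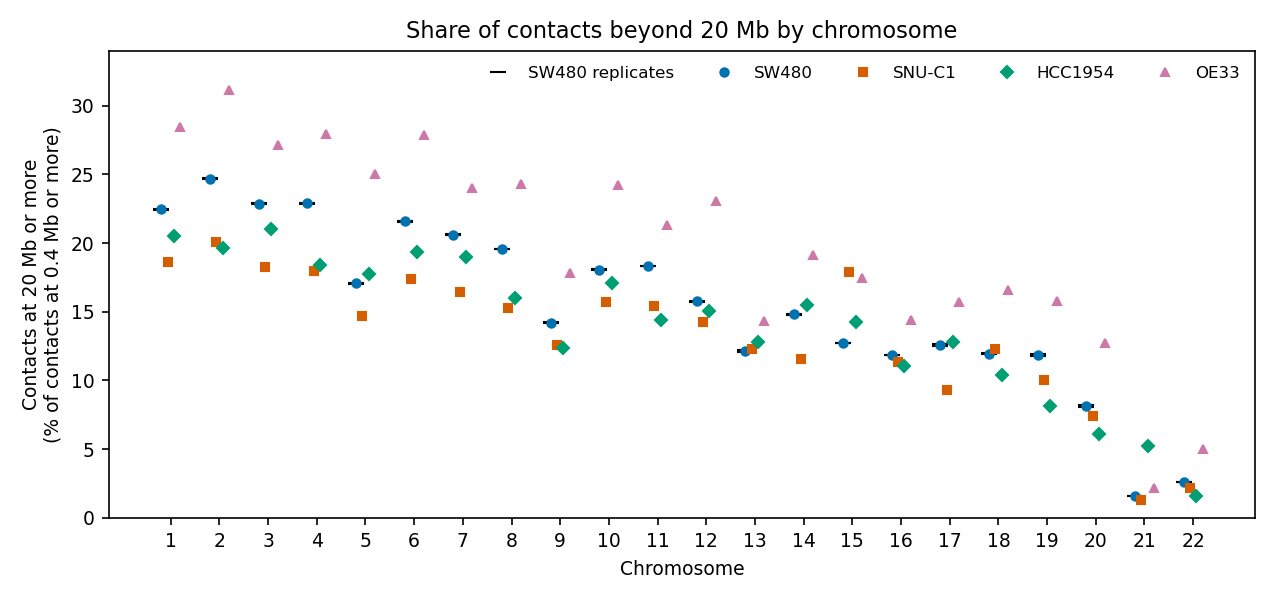
Contact frequency at 20 Mb or more as a percentage of that at 0.4 Mb or more (vertical axis) for chromosomes 1 to 22 (horizontal axis); coloured symbols are the 4 lines and black bars the SW480 replicates. OE33 lies on top on 20 of 22 chromosomes, SNU-C1 on chromosome 15 (17.9%) and HCC1954 on chromosome 21 (5.24%).

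OE33 also had more contact between chromosomes than SNU-C1 and HCC1954. The mean contact frequency at 20 Mb or more was 10.9 times the mean between chromosomes in SNU-C1, 9.98 times in HCC1954 and 6.20 times in OE33. After the mean between chromosomes was subtracted from every bin pair, a setting chosen after the data were seen, the share was 14.50% for SNU-C1 and 15.32% for HCC1954, against 21.03% for OE33. OE33 thus kept the largest share of these 3 lines. For SW480, which holds few contacts between chromosomes, this subtraction was not made.

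Relative to the mean at 0.4 to 2 Mb on the same chromosome, the 4 curves of contact frequency lay closer together up to about 10 Mb than beyond it. In thousandths of that mean, contact at 10 to 11 Mb was 62.6, 56.9, 51.8 and 61.8. At 20 to 22 Mb it was 33.4, 30.5, 30.2 and 40.7, and at 50 to 55 Mb it was 11.60, 7.885, 9.996 and 16.55. The largest value over the smallest was 1.21 at the first of these distances, 1.35 at the second and 2.10 at the third, while the SW480 replicates differed by a factor of at most 1.011 at the distances read. In the interval that starts at 100 Mb SNU-C1 and HCC1954 lay close together, at 3.28 and 3.41 thousandths, while SW480 had 5.535 and OE33 7.0001. In the interval that starts at 200 Mb the values were 4.423, 3.975, 2.749 and 6.503, so that SNU-C1 lay above its level at 100 Mb and the other lines lay below theirs. Only chromosomes 1 and 2 are longer than 200 Mb, so these levels do not rest on the same chromosomes. Just outside the limit of 20 Mb, at 19 to 20 Mb, contact was 35.93, 33.24, 33.05 and 43.48 thousandths, and just inside, at 20 to 21 Mb, it was 34.2, 31.3, 31.0 and 41.4, with no step at the limit.

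**Figure D2:**
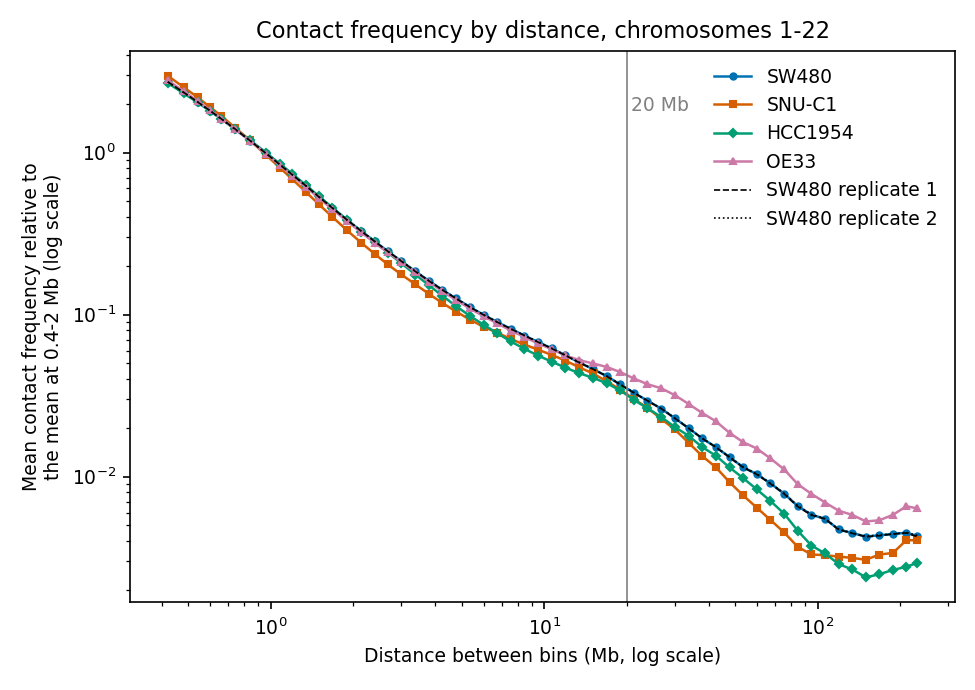
Mean contact frequency over chromosomes 1 to 22, relative to each chromosome's mean at 0.4 to 2 Mb (vertical axis, log scale), against the distance between bins in Mb (horizontal axis, log scale) for the 4 lines and the SW480 replicates, which overlie each other. The curves part beyond about 10 Mb, OE33 is highest at 20 Mb and beyond, and all flatten beyond about 100 Mb. Fewer chromosomes are long enough to contribute at the longest distances.

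The slope of log10 contact frequency on log10 distance was taken for each chromosome. A slope of -1 means that contact falls in proportion to distance, and a more negative slope is steeper. At 20 Mb or more the median over 22 chromosomes was -0.951 in SW480 (-0.950 and -0.951 in the replicates) and -1.0998 in SNU-C1, and -1.148 in HCC1954 and -0.969 in OE33. At 2 to 20 Mb it was -0.977, -0.915, -1.04 and -0.923, and at 0.4 to 2 Mb it was -1.31, -1.46, -1.29 and -1.33. SNU-C1 was therefore steepest of the lines at short range on all 22 chromosomes when set against SW480, HCC1954 or OE33, shallower than SW480 on 19 chromosomes at 2 to 20 Mb, and steeper than SW480 on 19 chromosomes at 20 Mb or more.

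The slopes at 20 Mb or more varied more between chromosomes and between lines than those of the nearer classes. The range of the 4 lines on a chromosome had a median of 0.382, against 0.167 at 2 to 20 Mb and 0.185 at 0.4 to 2 Mb. The SW480 replicates differed by a median of 0.00982 at 20 Mb or more. The range of the lines exceeded the difference between replicates on all 22 chromosomes, but a range of 4 values tends to be wider than a difference of 2. Taken in pairs, the lines differed by more than the replicates on 20 to 22 of the 22 chromosomes. The order of SW480 and OE33 was not stable over chromosomes, since OE33 was steeper on 13 and shallower on 9. Neither was that of SNU-C1 and HCC1954, each steeper on 11. HCC1954 was steeper than SW480 on 15 chromosomes, and SNU-C1 was steeper than OE33 on 17.

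With the mean between chromosomes subtracted, the median slope was -1.24 in SNU-C1 and -1.29 in HCC1954, against -1.26 in OE33, so OE33 was no longer shallower than SNU-C1 in that setting and stayed slightly shallower than HCC1954. Its larger share, given above, remained.

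Chromosome 18 was among the steepest in SW480 (-1.51; -1.53 and -1.50 in the replicates) and OE33 (-1.60), while SNU-C1 had -1.29 and HCC1954 -1.17. Chromosome 17, with 15.4 protein-coding genes per usable Mb, was shallow in all 4 lines, with -0.230, -0.538, -0.560 and -0.126. Chromosome 4, with 3.87, was steep, with -1.12, -1.60, -1.41 and -1.24. Chromosome 19, with 27.8, had the most genes per usable Mb and was not shallow, with -0.952, -1.31, -1.25 and -1.23. Over the 20 chromosomes other than 21 and 22, Pearson's r of the slope with genes per usable Mb was 0.377, 0.193, 0.110 and 0.224. Spearman's rho of the slope with protein-coding genes per Mb was 0.541, 0.460, 0.239 and 0.598, and with chromosome length it was -0.266, -0.149, -0.358 and -0.129. These are correlations across chromosomes of the same libraries, given as a description.

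Single lines stood apart on single chromosomes. On chromosome 14 SNU-C1 had -1.39, against -0.838 in SW480, -0.806 in HCC1954 and -0.636 in OE33. On chromosome 13 OE33 had -1.38, against -0.874, -0.967 and -0.905 in SW480, SNU-C1 and HCC1954. On chromosome 15 OE33 was the shallowest, at -0.258, against -0.750, -0.946 and -0.616. On chromosome 20 HCC1954 had -0.233, against -0.745, -0.715 and -0.541. The SW480 replicates differed by 0.0137, 0.0106, 0.0163 and 0.0643 on these chromosomes in the order given. Coverage also differed between lines on some of them, and its part in the slopes was not tested: on chromosome 13 SNU-C1 had 2.297 times the median coverage of the other lines and OE33 had 0.759 times.

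On chromosome 5 HCC1954 was the shallowest, at -0.827, against -1.18 in SW480, -1.42 in SNU-C1 and -0.962 in OE33. Without the line-specific block pairs it had -1.41, beside -1.38, -1.69 and -1.15. The pairs left out there were picked for being high in HCC1954, and the setting also removed the most distant block pairs of the chromosome from every line. Without these pairs HCC1954 was no longer the shallowest. Chromosomes 21 and 22 gave 4 and 5 distance intervals and loose fits. Chromosome 21 had -1.08, -1.72, -0.716 and -1.63, with counting errors of 0.0643 to 0.141, and HCC1954 had -1.98 without the line-specific block pairs, which were picked for being high in HCC1954. On chromosome 22 the slopes were -0.228, -0.733, 1.05 and 0.455, but the SW480 replicates gave 0.0785 and -0.572. Nothing is drawn from chromosome 22 alone, though it enters the medians and counts over 22 chromosomes.

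**Figure D3:**
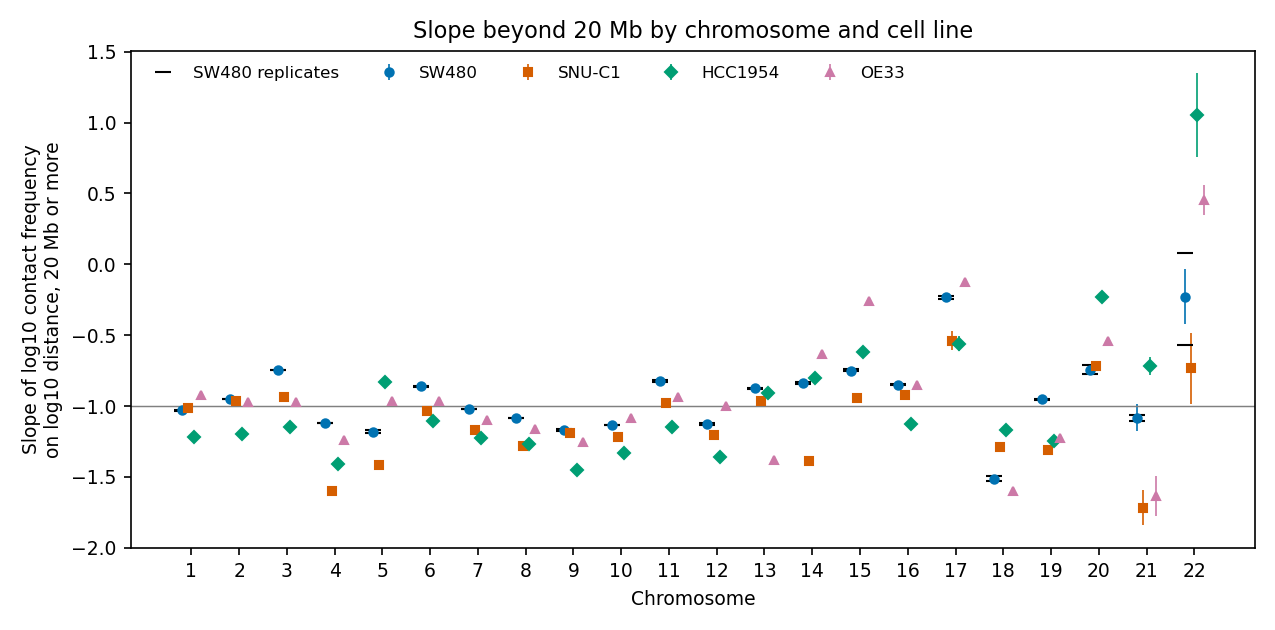
Slope of log10 contact frequency on log10 distance at 20 Mb or more (vertical axis) for chromosomes 1 to 22 (horizontal axis); coloured symbols are the lines with the counting error of the fit, black bars are the SW480 replicates and the grey line is a slope of -1. Taken in pairs, the lines differ by more than the replicates on 20 to 22 of the 22 chromosomes. Chromosome 17 is shallow in all 4 lines, and chromosomes 21 and 22 are loosely determined.

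One slope did not describe the whole range. At 20 to 50 Mb the median slope was -1.13, -1.40, -1.14 and -0.895. At 50 to 100 Mb, on 18 chromosomes, it was -1.07, -0.952, -1.25 and -1.04. Beyond 100 Mb, on 12 chromosomes, it was 0.171, 0.459, -0.0198 and -0.103, so contact no longer fell with distance there in SW480 and SNU-C1 and hardly fell in HCC1954 and OE33. SNU-C1 was the steepest line at 20 to 50 Mb, whereas OE33 was the shallowest there. At 50 to 100 Mb SNU-C1 was the shallowest, and beyond 100 Mb its slope was the most positive. The range beyond 100 Mb held 26.7% of the bin pairs and 10.5%, 9.56%, 7.59% and 9.89% of the contact at 20 Mb or more.

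On most chromosomes contact between the ends lay above a line fitted at nearer distances. No value with the mean between chromosomes subtracted is given for these contacts. Distances of at least 0.9 of a chromosome's length join its outermost parts. There, on 17 chromosomes with 2 arms, the contact observed over that on a line fitted from 20 Mb to 0.8 of the length had a median of 1.65, 1.81, 1.56 and 1.40, and it was above 1 on 14, 15, 16 and 14 chromosomes. The highest was chromosome 5 in HCC1954, at 3.76, against 1.78 in SW480, 2.62 in SNU-C1 and 1.22 in OE33. That distance range holds the pair of end blocks described below that was strong in HCC1954 alone, and no value without it is given. Chromosome 19 was the lowest in all 4 lines, with 0.368, 0.300, 0.594 and 0.384 (0.389 and 0.348 in the SW480 replicates).

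Contact across the centromere was lower than contact within an arm in SW480, HCC1954 and OE33, and near it in SNU-C1. Contact across the centromere was set against contact within an arm at the same distance on the 17 chromosomes with 2 arms, and a ratio of 1 means that the centromere makes no difference. The centromere was the longest run of bins without contacts, 2.96 to 21 Mb long, and on each of the 17 chromosomes it overlapped unassembled sequence of at least 1 Mb in the reference. The median ratio at 20 Mb or more was 0.680 in SW480 (0.681 and 0.675 in the replicates) and 0.966 in SNU-C1, and 0.543 in HCC1954 and 0.660 in OE33. SNU-C1 was highest on 15 of 17 chromosomes, on each by more than the replicates differed, and HCC1954 was lowest on 12. The replicates differed by a median of 0.00771 and at most 0.0230. SW480 and OE33 were neighbours in this order. Without the correction the median of SNU-C1 was 1.05, on the other side of 1, so its direction rests on the correction, while SNU-C1 was still the highest of the lines.

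The ratio was at least 1 on 8 chromosomes in SNU-C1, on 1 in SW480 and on 0 in HCC1954 and OE33. It was 2.06 in SNU-C1 on chromosome 9, against 1.09, 0.714 and 0.997 in SW480, HCC1954 and OE33. The gap of chromosome 9 measured 19.04 Mb, so that few distances hold both kinds of bin pair there. On chromosome 12 the ratio was 0.544, 1.34, 0.405 and 0.835, and on chromosome 16 it was 0.687, 1.29, 0.643 and 0.834. The exceptions to the order were chromosome 5, with 0.773, 0.630, 0.485 and 0.642, and chromosome 19, with 0.779, 0.492, 0.314 and 0.261, where SW480 was highest.

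Chromosome 18 stood apart in the other direction. Its ratio was 0.318 in SW480 (0.314 and 0.322 in the replicates) and 0.208 in OE33, the lowest of any chromosome in either line, against 0.909 in SNU-C1 and 0.640 in HCC1954. Chromosome 20 was low in SW480 too, at 0.372, against 0.728, 0.527 and 0.547. In HCC1954 chromosome 1 had 0.425, against 0.762, 0.966 and 0.833 in the other lines, and chromosome 2 had 0.776, its highest.

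**Figure D4:**
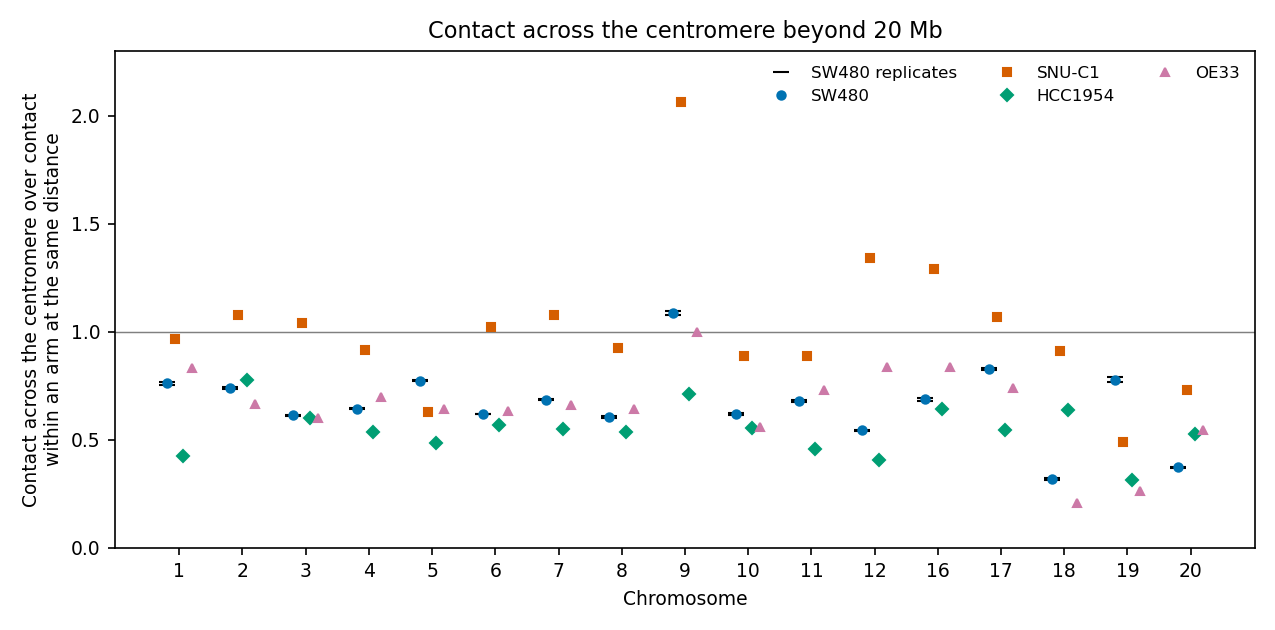
Contact across the centromere over contact within an arm at the same distance, for distances of 20 Mb or more (vertical axis), on the 17 chromosomes with 2 arms (horizontal axis); coloured symbols are the 4 lines, black bars the SW480 replicates and the grey line a ratio of 1. SNU-C1 is highest on all but chromosomes 5 and 19, and SW480 and OE33 are low on chromosome 18 (0.318 and 0.208).

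The ratio of SNU-C1 rose with distance. Its median was 0.726 at 2 to 20 Mb, 0.739 at 20 to 30 Mb, 0.923 at 30 to 50 Mb, 1.086 at 50 to 80 Mb and 1.199 at 80 Mb or more. In SW480 the same steps gave 0.579, 0.569, 0.581, 0.655 and 0.733, in HCC1954 0.584, 0.483, 0.487, 0.585 and 0.560, and in OE33 0.673, 0.556, 0.585, 0.689 and 0.758. The chromosomes that could be measured fell from 17 at 30 to 50 Mb to 10 at 80 Mb or more, so the steps do not rest on the same set.

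The levels behind the ratio were taken in thousandths of the mean at 0.4 to 2 Mb. At 20 to 22 Mb, on 15 chromosomes, contact within an arm was 35.2, 31.3, 31.2 and 42.2, and contact across the centromere was 20.4, 23.5, 15.9 and 28.1. SNU-C1 was thus level with HCC1954 within arms and above HCC1954 and SW480 across the centromere. At 30 to 33 Mb, on 16 chromosomes, contact within an arm was 23.63, 18.26, 20.81 and 33.11, and contact across was 14.5, 16.1, 11.4 and 20.7, so SNU-C1 was lowest within arms and again above SW480 and HCC1954 across. At 50 to 55 Mb, on 14 chromosomes, the values were 13.2, 7.40, 11.8 and 19.4 within arms and 8.77, 7.66, 6.34 and 11.7 across. At 80 to 88 Mb, on 10 chromosomes, they were 7.52, 2.92, 5.98 and 10.4 within arms and 5.95, 3.78, 3.92 and 8.22 across, so SNU-C1 was lowest on both sides. The replicates of SW480 gave 7.47 and 7.58 within arms and 5.910 and 6.001 across at that distance. The high ratio of SNU-C1 thus lay with more contact across the centromere than in SW480 and HCC1954 at the nearer of these distances. At the farther ones the high ratio lay with little contact within arms in SNU-C1. Its slope was the steepest of the lines on both sides: within an arm the median over 17 chromosomes was -1.04, -1.75, -1.13 and -1.01, and across the centromere it was -0.690, -1.00002, -0.806 and -0.637. Contact across the centromere fell less steeply than contact within an arm on 14, 16, 12 and 15 of the 17 chromosomes.

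Of all contact at 20 Mb or more on these chromosomes, 33.1%, 36.0%, 27.4% and 32.7% lay across the centromere, where 56.4% of the bin pairs lay. At 2 to 20 Mb it was 1.53%, 2.11%, 1.42% and 1.99%, for 4.31% of the bin pairs, and at 0.4 to 2 Mb no bin pair spans a centromere. Among contacts across the centromere, bins at a like distance from it were compared with bins at unlike distances, each against the mean for the same total distance. The ratio of like to unlike was 1.0002 in SW480 (1.0018 and 0.9983 in the replicates) and 1.22 in SNU-C1, and 1.02 in HCC1954 and 0.948 in OE33, and like pairs were higher on 6, 11, 8 and 4 of the 17 chromosomes. Contact across the centromere was thus higher between loci at a like distance from it in SNU-C1, by more than the replicates of SW480 differed.

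Contact at long range varied with gene density. Blocks of 1 Mb were split into 856 poor blocks (up to 2 protein-coding genes), 864 middle blocks (up to 7) and 801 dense blocks, and contact was divided by the mean for the same chromosome and distance (O/E). At 20 Mb or more the O/E of poor with poor blocks was 1.19, 1.23, 1.13 and 1.46, that of dense with dense blocks was 1.22, 1.19, 1.19 and 1.09, and that of poor with dense blocks was 0.736, 0.721, 0.795 and 0.682. In all 4 lines, then, blocks of one kind met more often than the mean and blocks of opposite kinds less often. Dense blocks met above the mean only in this class of distances among the classes compared: at 2 to 20 Mb their O/E was 0.984, 0.899, 0.931 and 0.870. Poor blocks met above the mean in both classes, with 1.27, 1.29, 1.28 and 1.56 at 2 to 20 Mb.

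The contrast, the product of the O/E of like pairs over the square of that of poor with dense blocks, was 2.67 in SW480 (2.68 and 2.67 in the replicates) and 2.80 in SNU-C1, and 2.13 in HCC1954 and 3.44 in OE33. At 2 to 20 Mb it was 2.10, 1.90, 1.78 and 2.85. It was larger at 20 Mb or more in all 4 lines, and OE33 had the largest and HCC1954 the smallest in both classes. SNU-C1 and SW480 were neighbours in this order beyond 20 Mb, and their order turned with tertiles of GC content in place of gene density, where SW480 had 3.81 and SNU-C1 had 3.43.

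**Figure D5:**
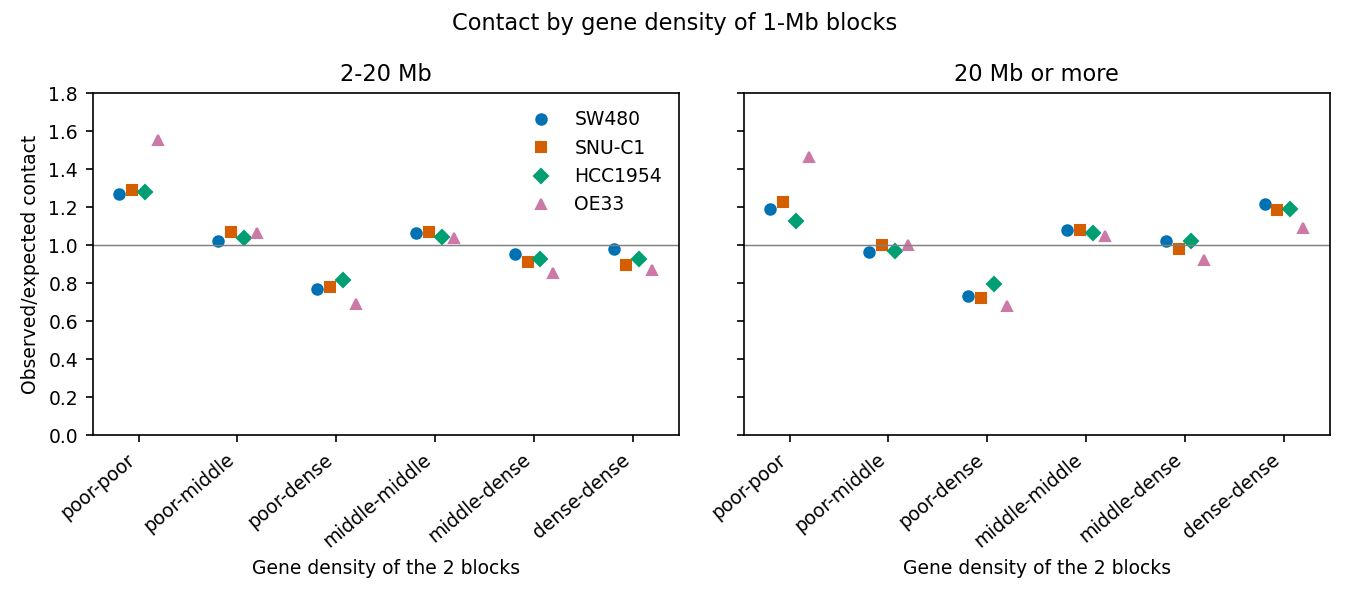
Observed/expected contact (vertical axis, from 0) between 1-Mb blocks by the gene density of both blocks (horizontal axis), at 2 to 20 Mb on the left and at 20 Mb or more on the right, for the 4 lines; the grey line is 1, the mean for the same chromosome and distance. Poor with dense blocks lie lowest in both panels, and dense with dense blocks lie above 1 on the right (1.09 to 1.22).

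Which distant blocks met was shared only in part between lines. Spearman's rho of O/E over 136931 pairs of 1-Mb blocks with all bins at least 20 Mb apart was 0.864 between the SW480 replicates. Between lines it ran from 0.444 for SNU-C1 with HCC1954 to 0.648 for SW480 with OE33. Over the 36221 block pairs at 2 to 20 Mb it was 0.968 between replicates and 0.630 to 0.748 between lines. A block pair at 20 Mb or more held a median of 60, 33, 32 and 50 read pairs (29 and 30 in the replicates), so sampling noise is part of these values. The lines share base composition and differ in depth, and no test is given.

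A small set of block pairs beyond 20 Mb was strong in 1 line alone. A block pair was called line-specific with an O/E of at least 4, at least 4 times the highest other line after 0.5 was added to both, and at least 10 read pairs. There were 9 in SW480 and 71 in SNU-C1, and 80 in HCC1954 and 0 in OE33, of 136931. Over all 175074 block pairs at least 2 Mb apart the background share was 0.00514% in SW480 and 0.0463% in SNU-C1, and 0.0543% in HCC1954 and 0% in OE33. That background includes the block pairs beyond 20 Mb, whose own shares were 0.00657%, 0.0519%, 0.0584% and 0%. At 2 to 20 Mb the shares were 0%, 0.0276%, 0.0359% and 0%, from 0, 10, 13 and 0 of 36221 block pairs, and the difference between the distance classes was not tested. They held 0.0494%, 0.775% and 1.18% of the read pairs of SW480, SNU-C1 and HCC1954 at this distance. At a fold of 3 in place of 4 the counts were 12, 149, 115 and 10, and without the correction SNU-C1, HCC1954 and OE33 had 109, 144 and 7, so the 0 of OE33 rests on the fold and on the correction. In 2-Mb blocks the counts were 1, 14, 23 and 0. With bins at 0.5 of the median coverage they were 5, 68, 51 and 0, so the order of SNU-C1 and HCC1954 rests on the coverage limit and on the fold.

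The line-specific pairs lay on 3 chromosomes in SW480, 5 in SNU-C1 and 8 in HCC1954. SNU-C1 had 38 of its 71 on chromosome 15 and 26 on chromosome 3. These were 2.63% and 0.174% of all block pairs this far apart on those chromosomes, against 0.0519% over all chromosomes. HCC1954 had 25 of its 80 on chromosome 5, 11 on chromosome 21, 10 on chromosome 4 and 9 on chromosome 8. In that order these were 0.222%, 16.7%, 0.0777% and 0.153%, against 0.0584% over all chromosomes. The share on chromosome 4 was thus near that of the whole line. Of the line-specific pairs, 9 of 9 in SW480, 32 of 71 in SNU-C1 and 43 of 80 in HCC1954 lay across the centromere, as did 54.6% of all block pairs. Chromosomes 15 and 21, which hold 38 of these pairs in SNU-C1 and 11 in HCC1954, were taken as 1 arm. The counts can therefore not be set directly against that share.

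The strongest in HCC1954 joined the ends of chromosome 5. The block chr5:1000001-2000000, which holds TERT (chr5:1253262-1295183, hg19, minus strand), the gene of the catalytic subunit of telomerase, met chr5:180000001-181000000 with an O/E of 64.7 from 2920 read pairs. The other lines had 1.67, 1.52 and 2.04 in SW480, SNU-C1 and OE33. These blocks lie at opposite ends of the chromosome, so their read pairs are part of the high end contact of chromosome 5 in HCC1954 given above. For this line the study describes TERT, APC and MYC as part of a complex rearrangement, with changed contacts between their chromosomes. Whether the slope, the end contact or the line-specific block pairs of this line on those chromosomes belong to that rearrangement was not tested. On chromosome 8, chr8:72000001-73000000 met chr8:106000001-107000000 with an O/E of 40.9 from 7651 read pairs, against at most 1.23 in another line. Again on chromosome 5, chr5:108000001-109000000 met chr5:176000001-177000000 with an O/E of 30.1 from 3184 read pairs, against at most 0.674.

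In SNU-C1 the strongest lay on chromosome 15. The block chr15:43000001-44000000 met chr15:99000001-100000000 with an O/E of 45.7 from 2248 read pairs, against 1.22, 1.38 and 0.861 in SW480, HCC1954 and OE33. The second of these blocks holds IGF1R (chr15:99191768-99507759, hg19, plus strand), which encodes the receptor of insulin-like growth factor 1. On the same chromosome chr15:53000001-54000000 met chr15:96000001-97000000 with an O/E of 30.5 from 2187 read pairs, against at most 2.24. On chromosome 19, chr19:21000001-22000000 met chr19:52000001-53000000 across the centromere with an O/E of 37.2 from 1370 read pairs. The other lines were above the mean there as well, at up to 2.81.

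The strongest SW480 pairs were high in both replicates, which make up the pooled map they were chosen in. The block chr3:27000001-28000000 met chr3:136000001-137000000 with an O/E of 20.85 from 1142 read pairs, and the replicates had 21.23 and 20.47 from 577 and 565 read pairs. On chromosome 12, chr12:31000001-32000000 met chr12:124000001-125000000 with an O/E of 19.7 from 699 read pairs, with 19.3 and 20.1 in the replicates. On chromosome 19, chr19:4000001-5000000 met chr19:28000001-29000000 with an O/E of 5.01 from 460 read pairs, with 4.86 and 5.12 in the replicates, against at most 0.284 in another line. All 3 lie across the centromere. No gene of the list of cancer genes used here lay in these blocks.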

How the data were processed

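Hi-C of 4 lines was read from 6 maps. Chromatin had been cut with MboI. Per the study's methods BWA-MEM aligned the reads (hg19), Picard took out PCR duplicates and iterative correction followed. Tool versions were not given in the sources used here. Deposited by the authors was a signal, contact frequency after correction for pairs of bins of 40 kb. Read pairs were recovered by fitting a factor per bin (45 iterations, pairs at least 5 Mb apart), and 99.84% to 99.98% of values up to 20.5 came out whole within 0.02.

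A bin was usable if its coverage reached 0.25 of the median in every line (62198 of 72036). Slopes were unweighted least squares over 20 intervals per factor of 10 in distance, with at least 200 bin pairs each. The arm ratio used distances with at least 20 bin pairs of each kind. Blocks needed 13 of 25 usable bins. The expected value for line-specific pairs was the mean over chromosomes at the same distance, smoothed beyond 5 Mb over 10% of it. Genes were GENCODE v44 lifted to GRCh37 (19229 protein-coding). Python 3.11.15, NumPy 2.4.6, pandas 2.3.3 and SciPy 1.17.1 were used. The slope, the arm ratio and the block pair call were tested on simulated read pairs.

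The bin pairs and lists were chosen with earlier results of these data known. Chromosomes were named by rule: in each line those with the steepest and shallowest slope, the highest and lowest arm ratio and the largest differences from the median of the other lines, with chromosomes 15 and 21; of block pairs, the 3 of highest O/E at least 10 Mb apart. Chromosomes 1, 2, 13 and 16 and those with other values were added where a comparison needed them. A planned block of 0.5 Mb was run as 0.48 Mb, a whole number of bins.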

Additional observations from a re-analysis of the deposited data

How the results depend on the processing

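In the order SW480, SNU-C1, HCC1954 and OE33, alternatives moved the median slope at 20 Mb or more to -0.990, -1.16, -1.23 and -0.901 without the correction, to -0.971, -1.11, -1.13 and -0.966 with bins at 0.5 of the median coverage, to -1.17, -1.47, -1.21 and -0.995 at 20 to 60 Mb, and to -1.01, -1.12, -1.23 and -1.04 with intervals weighted by bin pairs. Without line-specific block pairs SW480, HCC1954 and OE33 had -0.897, -1.19 and -0.984. With the mean between chromosomes subtracted SNU-C1, HCC1954 and OE33 had -1.24, -1.29 and -1.26. Among these settings it was the only one in which OE33 was not shallower than SNU-C1. The order also turned in the farther parts of the range. SNU-C1 and OE33 had -0.952 and -1.04 at 50 to 100 Mb, and 0.459 and -0.103 beyond 100 Mb. The share of contacts at 20 Mb or more was 15.78%, 16.997% and 24.33% in SNU-C1, HCC1954 and OE33 without the correction, and 14.50%, 15.32% and 21.03% with that mean subtracted. It was 16.8% and 23.9% in HCC1954 and OE33 at 0.5 coverage, and 15.57% and 16.55% in SNU-C1 and HCC1954 without line-specific block pairs. Of all contacts between different bins the shares were 10.3%, 7.76%, 8.99% and 13.5%. OE33 was highest and SNU-C1 lowest in each. The arm ratio was 0.734, 1.05, 0.558 and 0.639 without the correction, 0.652, 0.949, 0.550 and 0.650 at 0.5 coverage, and 0.625, 0.849, 0.527 and 0.581 at 20 to 60 Mb. It was 0.957, 0.511 and 0.590 in SNU-C1, HCC1954 and OE33 with the mean subtracted, and 0.549 in HCC1954 without line-specific block pairs. SNU-C1 was highest and HCC1954 lowest in each. Without SW480 replicate 1 or 2, SW480 had 0.675 to 0.681. The gene density contrast was 2.47, 2.62, 1.92 and 3.35 without the correction, 2.07, 2.21, 1.77 and 2.48 in 0.48-Mb blocks, and 3.81, 3.43, 2.16 and 5.02 with tertiles of GC content, where SNU-C1 fell below SW480. Line-specific block pairs numbered 109, 144 and 7 in SNU-C1, HCC1954 and OE33 without the correction, 149, 115 and 10 in SNU-C1, HCC1954 and OE33 at a fold of 3, 1, 14 and 23 in SW480, SNU-C1 and HCC1954 in 2-Mb blocks, and 5 and 51 in SW480 and HCC1954 at 0.5 coverage. The causes were not tested. SW480 and OE33 changed order in slope without the correction, at 0.5 coverage and at 20 to 60 Mb, and SNU-C1 and HCC1954 did so at 20 to 60 Mb. Depth limits single block pairs, with a median of 32 read pairs in HCC1954. No paired analysis was possible because only SW480 has replicate maps among those analysed here.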
